A study of Mus musculus with 9 samples.

Results

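The MHC class II presentation genes are the set of genes through which immune cells show peptides from engulfed protein to CD4+ T cells, and their RNA was examined here in mouse epididymal fat. The members were 9 genes, H2-Aa, H2-Ab1, H2-Eb1, H2-DMa, H2-DMb1, H2-Oa, H2-Ob, Cd74 and Ciita, taken by symbol from the annotation of the array, out of 19057 genes named on it. They were read by 16 probes. For 7 genes at least 1 probe was detected on 4 or more arrays and entered the test, 13 probes in all, among 12171 tested genes. H2-Oa and H2-Ob did not reach that minimum.

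The tissue came from 9 FVB/N mice of 3 months, fasted for 14 to 16 h. In 5 mice, labelled tg/tg, a transgene for the cytoskeletal tropomyosin Tm5NM1 was present (mice 165, 152, 147, 163 and 164), and 4 mice, labelled wt/wt, were wild type (mice 141, 142, 143 and 159). The sources used here do not give the promoter of the transgene or the cells that carry its product. Each mouse gave 1 Illumina bead array of RNA from the whole fat pad. Between 22239 and 23313 of the 45281 probes were detected per array, with a median intensity between 142 and 192. The 3 dimmest arrays, with medians of 142 to 147, were wild-type mice 142, 143 and 159, while the fourth wild-type array and all transgenic ones lay between 169 and 192; the part of brightness in the differences was not tested. Adipoq, Plin1 and Lpl, which mark adipocytes, were detected on all 9 arrays.

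In a cell that presents antigen, an alpha chain (H2-Aa) and a beta chain (H2-Ab1, H2-Eb1) form the class II molecule. The invariant chain, Cd74, fills its groove until the molecule reaches the endosome. There H2-DM (H2-DMa with H2-DMb1) exchanges the last fragment of the invariant chain for a peptide, and H2-DO (H2-Oa with H2-Ob) restrains H2-DM. Ciita is the coactivator that switches this set of genes on. In fat, class II is best known on macrophages, dendritic cells and B cells, and adipocytes are also reported to make it. FVB/N mice carry the q haplotype of the H2 complex, which gives no functional alpha chain of the E molecule, so that H2-Eb1 has no partner at the cell surface there.

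Of the member genes, H2-Oa, H2-DMa, H2-DMb1, H2-Ob, H2-Ab1, H2-Aa and H2-Eb1 lie in this order on chromosome 17, between positions 34092379 and 34316674 of GRCm38.p6. Ciita lies on chromosome 16. Class II promoters are known for an X box, bound by the RFX complex and CREB, followed by a Y box, bound by NF-Y, and it is on this pair that Ciita acts. The letters CNNGNAAC followed by ATTGG, with the second motif beginning 33 to 36 bases after the first base of the first, were searched on both strands in the 250 bases before each start in RefSeq's promoter windows. This pattern and its spacing were chosen after these promoters had been read. It was present, on the gene's own strand, before 5 of the 6 member genes with a window, and in 26 of 32851 windows over all genes, 0.0791% (0.137% on either strand). ATTGG or its complement CCAAT alone was in 33.8% of windows and CNNGNAAC alone in 33.3%. The 5 stretches that hold the pattern are shown, and the capitals mark the 2 motifs. Because the pattern was chosen after reading these promoters, its count among them is no test of a shared element.
H2-Aa: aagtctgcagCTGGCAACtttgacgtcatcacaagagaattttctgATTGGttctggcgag
H2-Eb1: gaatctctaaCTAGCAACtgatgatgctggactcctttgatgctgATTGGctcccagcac
H2-DMb1: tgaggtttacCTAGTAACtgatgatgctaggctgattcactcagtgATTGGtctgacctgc
H2-Oa: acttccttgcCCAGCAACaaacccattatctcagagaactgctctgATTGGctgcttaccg
H2-Ob: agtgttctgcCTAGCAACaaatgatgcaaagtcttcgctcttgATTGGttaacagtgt

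In GRCm38.p6 these stretches lie at chr17:34287857-34287917 on the minus strand for H2-Aa, and on the plus strand at chr17:34305763-34305822 for H2-Eb1, chr17:34153084-34153144 for H2-DMb1, chr17:34092290-34092350 for H2-Oa and chr17:34238805-34238862 for H2-Ob. ATTGG began 48 bases before the start of H2-Aa, 59 before H2-Eb1, 61 before H2-DMb1, 43 before H2-Oa and 57 before H2-Ob. H2-Eb1 and H2-Ob shared the letters CTAGCAAC at the first motif. Neither of the 2 windows of H2-DMa held the pattern, which says only that these letters are not in those windows. H2-Ab1, Cd74 and Ciita were not searched. The other 20 genes with the pattern included H2-Eb2, a neighbour of H2-Eb1, and Btn2a2, a butyrophilin, both singled out after the list was seen. The reference is C57BL/6J, whose H2 haplotype differs from that of FVB/N, so the mice may differ from these letters.

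Each of the 13 tested class II probes read on average higher in transgenic fat than in wild-type fat, but no difference passed the test over all probes. Of these, 12 were detected on all 9 arrays, and 1 Ciita probe entered the test through its detection in transgenic mice. The 3 probes of H2-Oa and H2-Ob were too dim to test, and no direction is read from them. Of all tested probes 57.5% were higher in transgenic fat. The median difference over the 7 tested member genes was 0.36 on the log2 scale, against 0.04 over all tested genes. The member median was 0.23 without transgenic mouse 164, 0.56 without transgenic mouse 152 and 0.22 without wild-type mouse 159, and in the last of these 6 of the 7 genes were higher. None of the 13 probes was called (limma, adjusted p between 0.412 and 0.910), where 0.0685% of all tested probes were called, all of them lower in transgenic fat. At an unadjusted p under 0.05, 3 member probes were higher, the dim Ciita probe among them, against 6.05% of all tested probes, and 2 of the 7 member genes, against 5.55% of all tested genes. Levels below are normalized log2 intensities, differences are transgenic minus wild type on that scale, and a level of one probe cannot be set against that of another. In RNA of whole tissue, more class II cells and more class II RNA per cell cannot be told apart, nor can fewer cells and less RNA per cell.

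**Figure D1:**
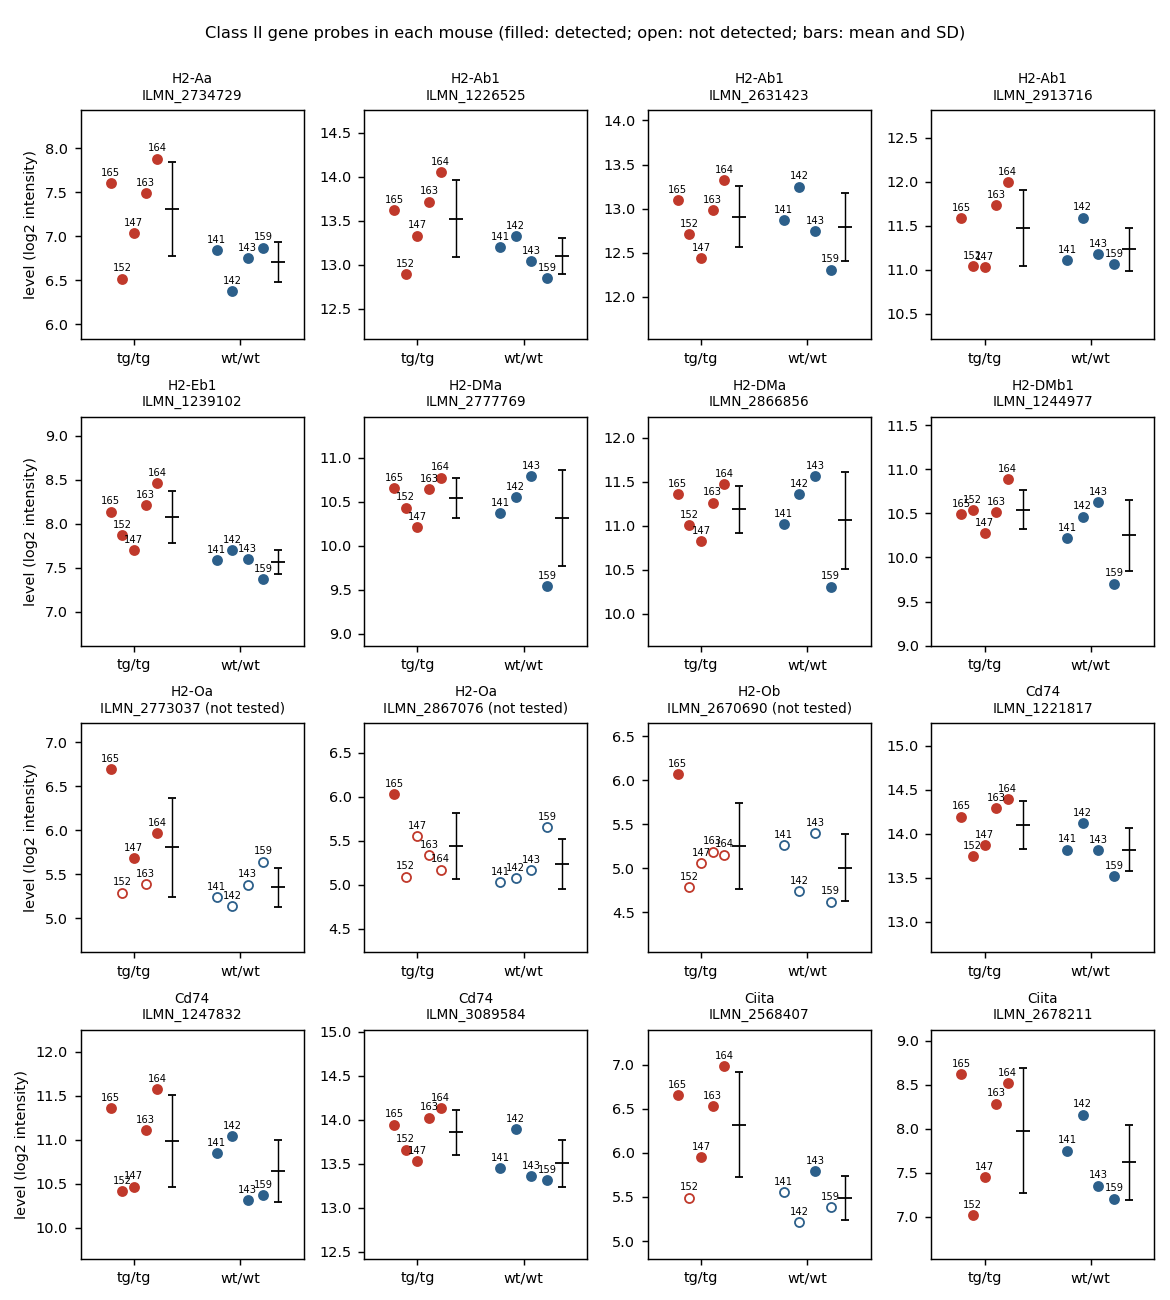
Normalized level (log2 intensity, y axis) of each of the 16 class II probes in 5 tg/tg and 4 wt/wt mice, with mouse numbers beside the points, filled points for detected and open points for not detected, and bars for the mean and SD of each genotype. All panels span the same log2 range; transgenic mouse 164 is the highest of the 9 mice at 10 of the 13 tested probes, and wild-type mouse 159 the lowest at 8.

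Ciita, the coactivator of the whole set, was read by 2 tested probes that differed in how often they were detected. At the probe detected on all arrays (ILMN_2678211) it read 8.62 (mouse 165), 7.02 (152), 7.45 (147), 8.28 (163) and 8.51 (164) in transgenic fat, against 7.75 (141), 8.16 (142), 7.35 (143) and 7.20 (159) in wild-type fat. Transgenic mice 165, 163 and 164 were above every wild-type mouse, while 152 was below all of them and 147 within their range. The difference was 0.36, with a 95% confidence interval of -0.43 to 1.15 (limma adjusted p = 0.787). Without 1 mouse it lay between 0.20 (without 165) and 0.60 (without 152), and it was 0.23 without 164, 0.22 without 159 and 0.54 without 142. The deposited table called non-normalized gave 0.15, and the mean of both Ciita probes 0.60. The means were 7.98 ± 0.71 (SD, n = 5) in transgenic and 7.62 ± 0.43 (SD, n = 4) in wild-type fat.

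The other Ciita probe (ILMN_2568407) gave the widest difference of any tested member probe. It was detected in 4 of 5 transgenic mice and in 1 of 4 wild-type mice, and so entered the test only through the group in which it is higher. Levels were 6.66 (165), 5.49 (152), 5.95 (147), 6.53 (163) and 6.98 (164) in transgenic fat, against 5.56 (141), 5.21 (142), 5.80 (143) and 5.39 (159) in wild-type fat. All transgenic mice but 152 were above the wild-type mice. Because 3 wild-type arrays were below background, a fold change is given with undetected wild-type values raised to the dimmest detected probe of their array. Transgenic fat was 1.53-fold higher on this basis, which is no minimum, because the fitted difference fell under other background settings. The fitted difference itself did not pass (limma adjusted p = 0.433). With wild-type values at background, the difference depended on the background setting, at 0.83 as fitted, 0.55 with an offset of 50 and 0.30 without background correction. The 2 Ciita probes correlated with r = 0.71 across the 9 mice.

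The chains of the A molecule, H2-Aa and, at its brightest probe only, H2-Ab1, showed transgenic mice 165, 163 and 164 on top. H2-Aa, the alpha chain, read 7.60 (165), 6.52 (152), 7.03 (147), 7.495 (163) and 7.88 (164) in transgenic fat, against 6.84 (141), 6.38 (142), 6.75 (143) and 6.87 (159) in wild-type fat. Mouse 152 was the only transgenic mouse that overlapped the wild-type range. The means were 7.31 ± 0.54 (SD, n = 5) and 6.71 ± 0.23 (SD, n = 4), a difference of 0.60 or 1.51-fold (95% confidence interval 0.01 to 1.18 on the log2 scale; limma adjusted p = 0.523). It was 0.31 without background correction.

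H2-Ab1, the beta chain, has 3 probes, all detected on all arrays. At the brightest (ILMN_1226525) it read 13.62 (165), 12.89 (152), 13.33 (147), 13.72 (163) and 14.06 (164) in transgenic fat, against 13.20 (141), 13.32 (142), 13.04 (143) and 12.85 (159) in wild-type fat. Again all transgenic mice but 152 were above the wild-type range, mouse 147 only just. The difference was 0.42 (95% confidence interval -0.08 to 0.92; limma adjusted p = 0.594), and 0.26 for the mean of the 3 probes. The other H2-Ab1 probes differed by 0.24 (ILMN_2913716, adjusted p = 0.776; 0.11 without transgenic mouse 164) and 0.12 (ILMN_2631423, adjusted p = 0.906), and at these wild-type mouse 142 reached 11.59 and 13.25. That was above transgenic mouse 165 at both probes and above transgenic mouse 163 at the second. The 3 probes correlated with each other with r between 0.73 and 0.90.

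H2-Eb1, the beta chain of the E molecule, was the one tested member probe at which the genotypes did not overlap, and they missed overlap by a log2 gap of only 0.0029. It read 8.14 (165), 7.87 (152), 7.70 (147), 8.21 (163) and 8.46 (164) in transgenic fat, against 7.58 (141), 7.70 (142), 7.60 (143) and 7.37 (159) in wild-type fat. Such a separation, with transgenic fat higher, occurred at 2.04% of all tested probes. The means were 8.07 ± 0.30 (SD, n = 5) and 7.56 ± 0.14 (SD, n = 4), a difference of 0.51 or 1.43-fold (95% confidence interval 0.13 to 0.89; limma adjusted p = 0.412, unadjusted p = 0.0128). The exact two-sided permutation test over the 9 mice gave p = 0.0159, where the smallest p it can give is 0.00794. Over 18 alternatives the adjusted p of H2-Eb1 ranged from 0.0419 to 0.759, and only the one without normalization between arrays passed. Its difference was 0.33 without background correction.

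Cd74, the invariant chain, lies on chromosome 18 and was detected on all arrays at its 3 probes. At the brightest (ILMN_1221817) it read 14.19 (165), 13.75 (152), 13.87 (147), 14.30 (163) and 14.39 (164) in transgenic fat, against 13.82 (141), 14.12 (142), 13.82 (143) and 13.52 (159) in wild-type fat. Mice 165, 163 and 164 were again above the wild-type mice, and 152 and 147 among them. The difference was 0.28 or 1.22-fold (95% confidence interval -0.12 to 0.68; limma adjusted p = 0.651). It was 0.18 without wild-type mouse 159 and 0.15 when arrays were scaled on their 75th percentile. The other probes differed by 0.35 (ILMN_3089584, adjusted p = 0.570; 0.23 with that scaling) and 0.34 (ILMN_1247832, adjusted p = 0.731; 0.19 without transgenic mouse 164), and the 3 probes correlated with r between 0.88 and 0.94.

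The H2-DM genes, which help to load the peptide, had wild-type mice at or near both ends of their range. H2-DMa at its brighter probe (ILMN_2866856) read 11.36 (165), 11.00 (152), 10.83 (147), 11.26 (163) and 11.47 (164) in transgenic fat, against 11.02 (141), 11.35 (142), 11.56 (143) and 10.31 (159) in wild-type fat. The highest and the lowest mouse were both wild type, 143 and 159. The difference was 0.12 (95% confidence interval -0.44 to 0.68; limma adjusted p = 0.910), and without wild-type mouse 159 it was -0.13 (adjusted p = 0.885). The dimmer H2-DMa probe followed a similar order (r = 0.98 between the 2 probes) and differed by 0.23 (adjusted p = 0.807), or by -0.03 without mouse 159.

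H2-DMb1, the partner chain, read 10.49 (165), 10.54 (152), 10.28 (147), 10.51 (163) and 10.89 (164) in transgenic fat, against 10.22 (141), 10.46 (142), 10.63 (143) and 9.70 (159) in wild-type fat. Mouse 164 alone was above the wild-type range, and mouse 159 stood lowest. The difference was 0.29 (95% confidence interval -0.17 to 0.74; limma adjusted p = 0.687), and without mouse 159 it was 0.10. H2-DMb1 has a close copy, H2-DMb2, and signal at either probe may come from both. H2-DMb2 differed by -0.19 (adjusted p = 0.872), with 11.38 in mouse 143 and 9.78 in mouse 159, so that it too had these wild-type mice at its extremes.

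The H2-DO genes, which restrain H2-DM and are typical of B cells, were near background and were not tested. H2-Oa at one probe (ILMN_2773037) read 6.69 (165), 5.29 (152), 5.69 (147), 5.39 (163) and 5.97 (164) in transgenic fat, against 5.24 (141), 5.14 (142), 5.38 (143) and 5.64 (159) in wild-type fat. It was detected in transgenic mice 165, 147 and 164 and in 0 of 4 wild-type mice. With undetected wild-type values raised as for Ciita, and transgenic values left as read, its fold change was 1.09. The other H2-Oa probe (ILMN_2867076) and that of H2-Ob were each detected in 1 of the 9 mice, transgenic mouse 165, at 6.03 and 6.07. By the same step their fold changes were 0.85 and 0.74, so no direction is read from these values. Mouse 165 was thus the one animal in which all H2-DO probes were detected. It also had the highest mean level of the 5 tested B cell markers, 7.71 against 5.78 to 6.87 in the other transgenic mice and 6.48 to 6.92 in wild-type mice. Cd79b, Fcrla and Ms4a1 were each highest in mouse 165. Fcmr was higher in wild-type mice 141 and 143, and Fcer2a in transgenic mice 147 and 163. The part of B cells in the H2-DO signal was not tested.

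**Figure D2:**
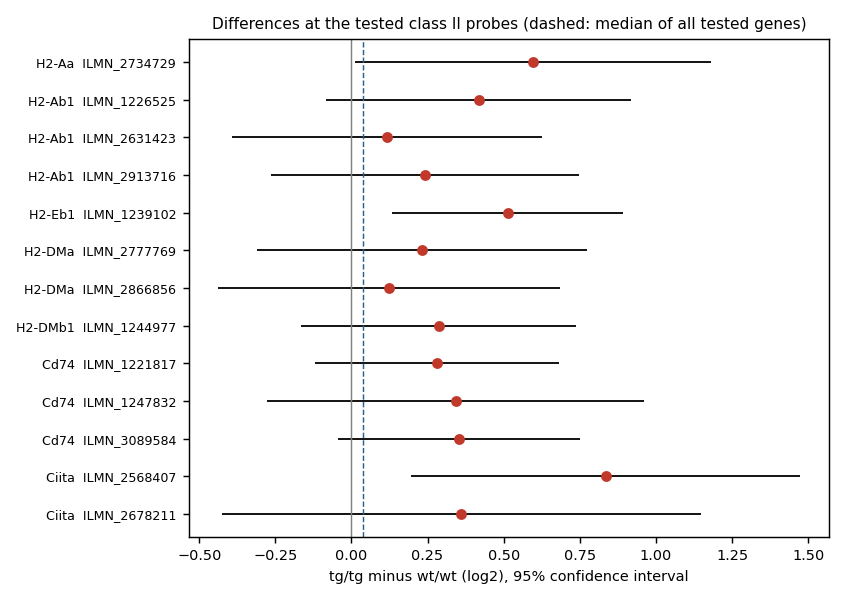
Difference between 5 tg/tg and 4 wt/wt mice (log2, x axis) at each of the 13 tested class II probes (y axis), with points for the difference and bars for its 95% confidence interval; the dashed line is the median of all tested genes, 0.04. All 13 points lie to the right of 0, and the unadjusted intervals of H2-Aa, H2-Eb1 and the Ciita probe detected in 1 of 4 wild-type mice leave 0 out.

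Across the 9 mice the member genes varied together, to differing degrees. Of the 21 pairs among the 7 tested genes, 12 had r over 0.7, and r ranged from 0.27 for H2-Aa with H2-DMa to 0.94 for H2-Ab1 with Cd74. Cd74 and Ciita correlated with r = 0.91, H2-Ab1 and Ciita with r = 0.89, and H2-DMa and H2-DMb1 with r = 0.90. These are descriptions over 9 arrays that share their normalization. When each value was taken as a deviation from its genotype mean, r was 0.92 for H2-Ab1 with Cd74, 0.92 for Cd74 with Ciita and 0.94 for H2-DMa with H2-DMb1, but 0.21 for H2-Aa with H2-DMa. H2-DMa had r = 0.72 with Cd74 over all 9 mice.

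The mouse-to-mouse order was set by 3 transgenic mice and 1 wild-type mouse. Mice 165, 163 and 164 were the highest 3 of the 9 at 8 of the 13 tested probes, and mouse 159 was the lowest at 8. Transgenic mouse 152 lay inside the wild-type range at 10 probes, below it at 2 and above it at 1, and transgenic mouse 147 lay inside it at 8, below at 1 and above at 4. Averaged over the 7 tested genes, each centred on its own mean, the levels were 0.35 (165), -0.28 (152), -0.15 (147), 0.32 (163) and 0.59 (164) in transgenic fat, against -0.16 (141), -0.01 (142), -0.12 (143) and -0.53 (159) in wild-type fat. Transgenic mice 152 and 147 thus lay within the wild-type range of this mean, and the other transgenic mice above it.

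**Figure D3:**
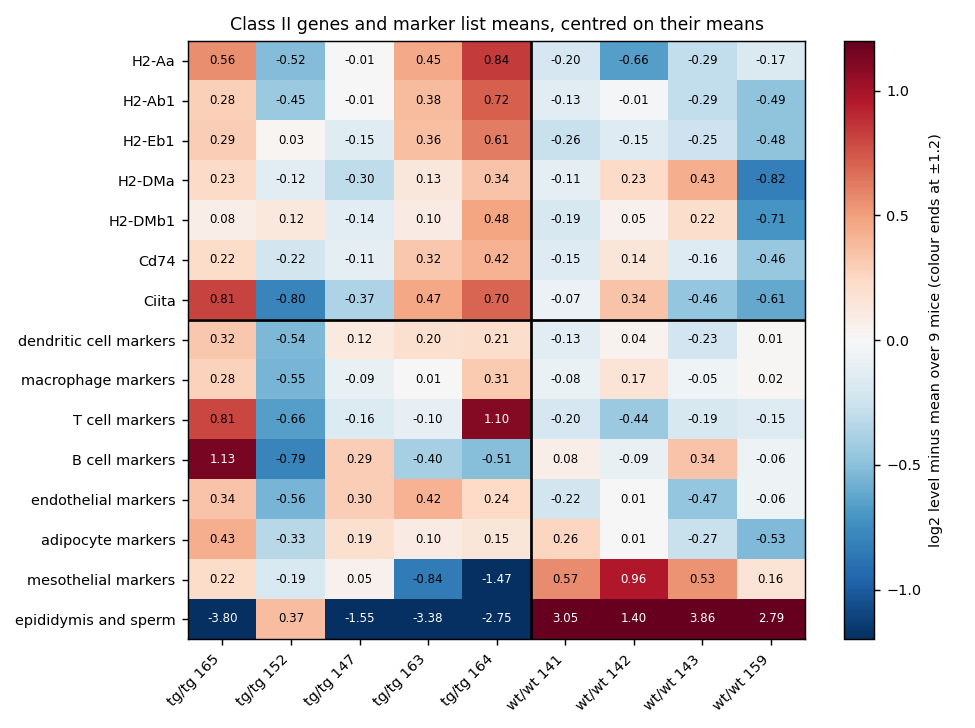
Levels of the 7 tested class II genes (upper rows) and mean levels of marker lists (lower rows) in each mouse (columns, tg/tg left, wt/wt right), as log2 differences from the mean over the 9 mice, with colours that end at ±1.2. Class II genes are above their means in transgenic mice 165, 163 and 164, while the mean level of the epididymis and sperm list is lowest in those same mice.

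RNA of the neighbouring epididymis and of sperm also differed between these mice. All 12 tested genes of that list were lower in transgenic fat, and 4 epididymal genes were called in limma, the defensin genes Defb48 (adjusted p = 0.000218) and Defb25 (adjusted p = 0.000862) and the lipocalin genes Lcn10 (adjusted p = 0.0360) and Lcn9 (adjusted p = 0.0376). Lcn10 was detected in 1 of 5 transgenic mice and Lcn9 in 0 of 5, against 4 of 4 wild-type mice each. Both lipocalin genes thus entered the test only through the group in which they are higher. The list mean was 5.39 (165), 9.57 (152), 7.64 (147), 5.81 (163) and 6.45 (164) in transgenic fat, against 12.24 (141), 10.60 (142), 13.06 (143) and 11.98 (159) in wild-type fat. The 3 transgenic mice with high class II levels had the 3 lowest means of this list. The list is mixed, and its sperm genes were looked up after the values were seen. Prm1 and Tnp1 were highest in transgenic mouse 164, at 11.11 and 8.79, and next in wild-type mouse 159, at 9.76 and 7.57. Odf1 was highest in wild-type mouse 159, at 10.70, against 7.16 in mouse 164. Because the genotypes do not overlap in this level, no correlation over all mice is given; of deviations from the genotype means, Cd74 and the epididymal level had r = -0.76 over the 9 mice. The part of this tissue in the class II differences was not tested.

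Marker genes of the cells that present antigen did not pass the test either. Macrophage markers, 13 of 14 tested, were higher at 7 and lower at 6, with a median difference of 0.03. Their mean level ran from 9.99 to 10.86 in transgenic mice and from 10.47 to 10.71 in wild-type mice. The members named by rule were Lyve1, a receptor of resident macrophages (-0.52, limma adjusted p = 0.528), Cd14, a receptor for bacterial lipopolysaccharide (-0.69, adjusted p = 0.566), and Cd163, a scavenger receptor (-0.43, adjusted p = 0.638). Itgam was not detected on any array.

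Dendritic cell markers, 8 of 12 tested, were higher at 6 and lower at 2 (median 0.20, mean level 7.44 to 8.30 in transgenic and 7.75 to 8.02 in wild-type mice). Cd209a, a lectin of monocyte-derived dendritic cells, differed by -0.86 (limma adjusted p = 0.482), the chemokine receptor Ccr7 by 0.54 (adjusted p = 0.521) and the actin bundler Fscn1 by 0.64 (adjusted p = 0.551). Ccr7 was near background, detected in 3 of 5 transgenic and 1 of 4 wild-type mice. Itgax, Flt3, Xcr1 and Ccl22 were not detected on any array, so the measured level leaves out the defining integrin Itgax.

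B cell markers, 5 of 10 tested, were higher at 4 and lower at 1 (median 0.34). Fcer2a, the low-affinity IgE receptor, differed by 0.57 (limma adjusted p = 0.352), the IgM receptor gene Fcmr by -2.56 (adjusted p = 0.399) and Cd79b, part of the B cell receptor, by 0.80 (adjusted p = 0.678), while Pax5 and Cr2 were not detected. Fcmr was detected in 3 of 5 transgenic and 4 of 4 wild-type mice, and needed the wild-type arrays to enter the test. T cell markers, 9 of 12 tested, were higher at 7 and lower at 2 (median 0.61, mean level 6.81 to 8.57 in transgenic and 7.03 to 7.32 in wild-type mice). The 2 lower genes, Cd8b1 (-0.20) and Zap70 (-0.12), were higher at another tested probe, by 1.08 and 0.22 (adjusted p = 0.616 and 0.751). The adaptor Lat differed by 0.79 (adjusted p = 0.554) and the receptor chains Cd3g and Cd3e by 0.71 and 0.68 (adjusted p = 0.618 and 0.629). Lat was detected in 4 of 5 transgenic and 1 of 4 wild-type mice. It thus entered the test only through the group in which it is higher. Cd4, the T cell partner of class II, was not detected on any array, and neither were Cd5 and Cd8a. T cell markers were highest in transgenic mice 165 and 164, at 8.28 and 8.57, but transgenic mouse 163, also high in class II, read 7.38.

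The level of Cd74 was set against 9 lists of cell type markers across the mice, by exact two-sided permutation, adjusted over the 9 relations. Of the 8 that are given here over all mice, none passed. Dendritic cell markers gave r = 0.63 (exact p = 0.0647, adjusted 0.105) and rho = 0.83 (p = 0.00827, adjusted 0.0744), and r = 0.64 without the farthest mice 152 and 165. Macrophage markers gave r = 0.62 (exact p = 0.0685, adjusted 0.105) and rho = 0.60 (p = 0.0968, adjusted 0.145), with r = 0.52 without mice 152 and 164 and r = 0.75 on deviations from the genotype means. T cell markers gave r = 0.63 (exact p = 0.0702, adjusted 0.105) and rho = 0.62 (p = 0.0857, adjusted 0.145), and r fell to 0.10 without mice 164 and 165, so that this relation rests on them.

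The remaining lists gave values on either side of 0. Endothelial markers, higher at 8 of 8 tested with none called (median 0.34; Kdr not detected; Ramp2 0.42, Tie1 0.61 and Cldn5 0.50, adjusted p between 0.458 and 0.567), had r = 0.65 (exact p = 0.0614, adjusted 0.105) and rho = 0.77 (p = 0.0214, adjusted 0.0963), with r = 0.64 without mice 152 and 143. Adipocyte markers, 7 higher and 2 lower with none called (median 0.11; Fabp4 1.27, Lep 0.52 and Retn 0.39, adjusted p between 0.369 and 0.744), had r = 0.68 (exact p = 0.0491, adjusted 0.105) and rho = 0.62 (p = 0.0857, adjusted 0.145), and r = 0.28 without mice 159 and 152, on which this relation therefore rests. Mesothelial markers, lower at 9 of 9 with none called (median -0.83; Upk1b -2.46, Krt7 -0.65 and Gpm6a -0.81, adjusted p between 0.418 and 0.610), had r = -0.52 (exact p = 0.153, adjusted 0.197) and rho = -0.33 (p = 0.385, adjusted 0.433), and r = 0.42 without mice 164 and 163. Red cell genes, higher at 3 of 3 with none called (median 0.01; Slc4a1 0.39, Hba-a1 0.01 and Alas2 0.0080, adjusted p between 0.828 and 0.998), had r = 0.41 (exact p = 0.282, adjusted 0.317) and rho = 0.48 (p = 0.194, adjusted 0.249), with r = 0.47 without mice 152 and 147. B cell markers had r = 0.0032 (exact p = 0.994, adjusted 0.994) and rho = -0.10 (p = 0.810, adjusted 0.810), but r = -0.71 without mice 165 and 152.

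**Figure D4:**
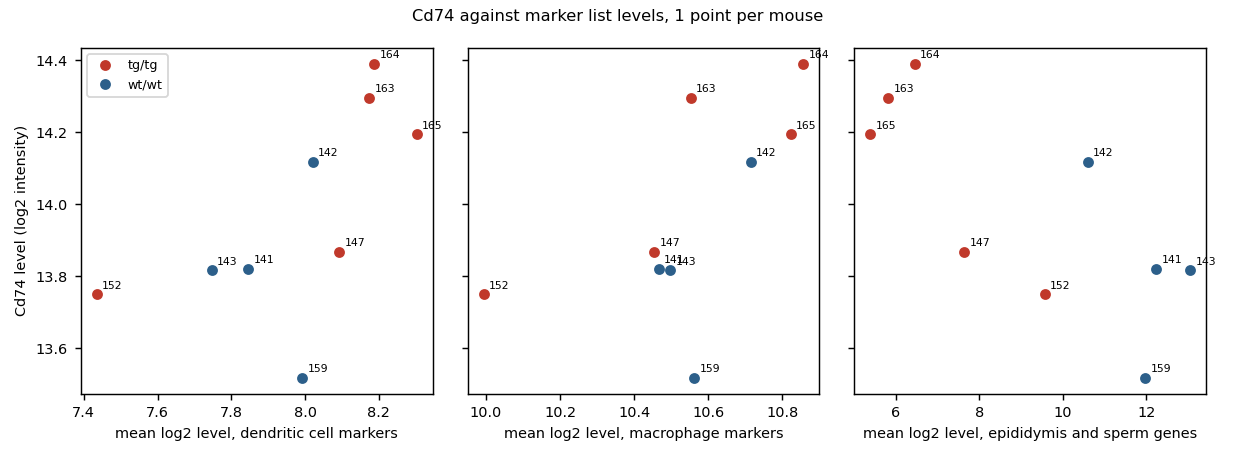
Level of Cd74 at its brightest probe (log2 intensity, y axis) against the mean log2 level of dendritic cell markers, macrophage markers, and epididymis and sperm genes (x axes), 1 point per mouse with its number, tg/tg and wt/wt in different colours. Cd74 is highest in transgenic mice 164, 163 and 165, which also have the lowest mean levels of the epididymis and sperm list.

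The genes that act on class II upstream or downstream were then counted, and none of the 50 tested genes in 6 lists passed in limma. At an unadjusted p under 0.05, 5 were higher and 3 lower, against 5.55% and 3.49% of all tested genes. Among factors of the class II promoter and of Ciita control, 13 of 17 were tested, 10 higher and 3 lower, with a median of 0.18. Irf4, a lymphocyte factor also made by adipocytes, read 8.75 (165), 7.93 (152), 8.38 (147), 8.67 (163) and 8.92 (164) in transgenic fat, against 9.65 (141), 11.26 (142), 11.00 (143) and 13.39 (159) in wild-type fat. All transgenic mice lay below the lowest wild-type mouse, but the share of all tested probes that separate in this direction was not counted. The difference of means was -2.79, which missed the threshold (limma adjusted p = 0.209, unadjusted p = 0.000886).

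The other promoter and control factors differed less. Spi1, the PU.1 factor of myeloid and B cells, differed by 0.56 (limma adjusted p = 0.457), and Ifngr2, a chain of the interferon gamma receptor, by 0.45 (adjusted p = 0.513). Interferon gamma itself (Ifng) was not detected on any array, and the same was true of Rfx5 and Rfxank, subunits of the RFX complex, and of Prdm1. Of the NF-Y subunits, Nfya differed by -0.37, Nfyb by -0.11 and Nfyc by 0.01, and the RFX subunit Rfxap by 0.24 (adjusted p between 0.532 and 0.996). Irf1 differed by 0.41 (adjusted p = 0.521) and Irf8 by 0.39 (adjusted p = 0.661). Creb1 differed by 0.38 (adjusted p = 0.544), and by -0.03 at its other tested probe.

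Endosomal proteases and their partners, which cut the invariant chain and the antigen, were all 9 tested, with 7 higher and 2 lower and a median of 0.08. Cathepsin H (Ctsh) differed by -0.34 (limma adjusted p = 0.514), cathepsin Z (Ctsz) by 0.42 (adjusted p = 0.632) and cathepsin D (Ctsd) by 0.37 (adjusted p = 0.740). Cathepsin S (Ctss), the enzyme that makes the last cuts in the invariant chain, differed by 0.04 (adjusted p = 0.984).

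Ubiquitin ligases and tetraspanins that act on class II molecules, 8 of 8 tested, were higher at 5 and lower at 3 (median 0.15). The tetraspanin Cd9 differed by -0.75 (limma adjusted p = 0.480), Cd63 by -0.29 (adjusted p = 0.584) and Cd82 by -0.42 (adjusted p = 0.681), and Marchf1, the ligase that removes class II from the surface, by 0.27 (adjusted p = 0.822). Costimulatory and checkpoint ligands, 5 of 9 tested, were higher at 4 and lower at 1 (median 0.09). Cd274 (PD-L1) differed by 0.47 (adjusted p = 0.659), Cd86 by 0.19 (adjusted p = 0.821) and Cd83 by 0.09 (adjusted p = 0.930). At its other tested probes Cd86 differed by 0.06 and -0.26. Of the other genes of the class II locus, 2 of 3 were tested, H2-DMb2 above and H2-Ea, the alpha chain of the E molecule, which differed by 0.27 (adjusted p = 0.825). H2-Eb2 was detected on 1 array.

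MHC class I genes, 13 of 13 tested, were higher at 11 and lower at 2, with a median of 0.19. Psmb9, a subunit of the immunoproteasome, read 11.53 (165), 10.83 (152), 10.90 (147), 11.08 (163) and 11.35 (164) in transgenic fat, against 10.83 (141), 10.48 (142), 10.69 (143) and 10.24 (159) in wild-type fat. Its groups touched without overlap, with mice 152 and 141 both near 10.83, and 2.04% of all tested probes separated with transgenic fat higher. The difference of Psmb9 was 0.58 (95% confidence interval 0.16 to 0.995; limma adjusted p = 0.407). The peptide transporter genes Tap2 and Tap1 each differed by 0.49 (adjusted p = 0.488 and 0.581), and H2-D1 and B2m, which form a class I molecule, by 0.11 and 0.10.

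Psmb9, Tap1, Psmb8 and Tap2 lie among the class II genes on chromosome 17, between H2-DMb1 and H2-Ab1. In the whole stretch from H2-Oa to H2-Eb1 there were 6 tested genes that are not members, of which 4, these same ones, were higher in transgenic fat. Brd2, a reader of acetylated histones next to H2-DMa, differed by -0.02 (limma adjusted p = 0.974). Tap2 and Tap1 ranked 29 and 32 among 12164 other genes in their likeness to the class II mean over the 9 mice, with r = 0.90 each, and Psmb9 ranked 175 with r = 0.84; these ranks were looked up after the values were seen.

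The 10 genes most like the class II mean of the 7 tested genes, by r over the 9 mice, were found among the 12164 other tested genes, of which 35 had r over 0.9. The first was H2-Q6 (r = 0.97), a class I gene of a family of near-identical copies whose signal may come from several of them. 2810025M15Rik and Thra, the thyroid hormone receptor alpha, followed with r = 0.96 each, and then Tecpr2, Gm5150 and Ly86, a partner of a Toll-like receptor relative on B cells and myeloid cells (r = 0.96 each). Tnfaip8l2, a brake on innate immune signalling, had r = 0.95, and Klra16, 1190005I06Rik and Gm2a, the GM2 ganglioside activator, had r = 0.94. Their differences ranged from 0.18 for 2810025M15Rik to 0.82 for Gm5150, which was detected on only 4 of the 9 arrays. None passed (limma adjusted p between 0.557 and 0.722). Of all other tested genes 22.3% had r over 0.5. Among macrophage markers 7 of 13 did, as did 8 of 9 T cell markers, 5 of 8 dendritic cell markers and 1 of 5 B cell markers. The likeness was not particular to immune cell lists, since 6 of 8 endothelial markers and 2 of 3 red cell genes also had r over 0.5. So did 10 of 13 class I genes and 4 of 9 adipocyte markers, but 0 of 9 mesothelial markers and 0 of 12 epididymis and sperm genes.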

How the data were processed

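The authors deposited 2 tables of probe values for the 9 arrays. Trizol served for RNA extraction, per the labels' protocols, and the RNA was cleaned on RNeasy columns with DNase, and labelled with biotin by an Ambion kit. The sources used here do not state the scanner or any normalization. The deposited series matrix holds linear intensity values. The deposited table called non-normalized holds intensity values and, per the file headers, a detection p-value. When probes were sorted by series matrix value, the detection p increased at 0 places on every array. Sorting by the other table gave 5386 to 6789 such places on 8 arrays, so the series matrix was used.

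Intensities were corrected and quantile normalized with neqc (limma 3.58.1, R 4.3.3; offset of 16, log2). The 23354 probes detected (p under 0.05) on 4 arrays or more entered lmFit and eBayes, a two-sided comparison of the genotypes without covariates, with Benjamini-Hochberg adjustment over all of them and a threshold of 0.05. A gene stands for its brightest tested probe. Mice are separate animals; the sources used here name no cage, litter or slide. The steps were tested on simulated data. Named genes were every member probe, the 3 genes of each list with the lowest unadjusted p, and the 10 most alike genes; other names are given beside them as background to their list, after their values were seen. Members and lists were chosen with earlier results of these data known. Of 45281 probes, 34885 had 1 gene symbol, 18 several and 10378 are not named here. Promoter sequences are RefSeq's (GRCm38.p6). Alternatives changed the background correction, offset, normalization, detection filter, value table, array weights, prior, probe choice and test, and left out each mouse without normalizing again.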

Additional observations from a re-analysis of the deposited data

How the results depend on the processing

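With 9 arrays, precision is limited by their number. The count of called probes, 16, moved to 1332 without normalization between arrays, 1 with probes detected on all 9 arrays, 9 with no filter on detection, and 353 with array weights. Without 1 mouse it ranged from 9 to 50, with 50 without transgenic mouse 152, 36 without wild-type mouse 142 and 9 without transgenic mouse 147, 163 or 164. Called member genes stayed at 0 in these alternatives except without normalization between arrays, where the median of all probes shifted to 0.43 and 2 member genes passed. These were H2-Aa (1.01, adjusted p = 0.0473) and H2-Eb1 (0.95, adjusted p = 0.0419), and the Ciita probe ILMN_2568407 passed too (1.15, adjusted p = 0.0448). Relative to that median they differed by about as much as after normalization. The 50 other pathway genes, of which 0 were called, gave 4 calls without normalization (Spi1, Psmb9, Tap2 and, lower, Irf4) and 1 with array weights (Cd9, lower) and 0 when any 1 mouse was left out. The sign turned at 3 probes without wild-type mouse 159. Over the fits without 1 mouse, H2-Ab1 ILMN_2631423 ranged from -0.045 to 0.27, H2-DMa ILMN_2777769 from -0.028 to 0.39 and H2-DMa ILMN_2866856 from -0.13 to 0.29. The cause of these changes was not tested. Of 250 values of single probes under alternatives, 242 kept their direction and their side of the threshold. No paired analysis was possible because the 2 genotypes share no replicate number.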
